A study of Rattus norvegicus with 18 samples.

Results

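The genes described here are 9 genes of myelin and of the oligodendrocyte lineage, taken by symbol from a table of 30735 genes measured in rat cerebral cortex. They are 5 genes of mature myelin (Mbp, Mog, Mag, Mobp and Cnp) and 1 gene listed under newly formed oligodendrocytes (Bcas1). The others are 1 gene used by the whole lineage (Sox10) and 2 genes of precursors (Pdgfra and Cspg4). All 9 passed the filter on low counts, which kept 18444 genes. Bulk RNA was sequenced from the cortex of 18 Sprague Dawley rats aged 8 to 10 weeks, whose sex was not given in the sources used here, with 1 library per rat. The sham group of 6 rats had the same surgery as the others without the perforation of a vessel. The SAH 1d and SAH 7d groups, of 6 rats each, were sampled 1 day and 7 days after subarachnoid hemorrhage (SAH) produced by perforating a vessel from inside, a model in which the amount of bleeding can differ between animals. The sources differ on the tissue, which is the whole cortex of the operated side in one and the cortex of both sides in another. Total counts ran from 27270026 to 38271014 per library.

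Oligodendrocytes wrap axons in myelin, and they arise from precursor cells that persist through adult life. Precursors carry the PDGF receptor encoded by Pdgfra and the proteoglycan NG2 encoded by Cspg4, and they lose both as they mature. A cell that leaves the precursor state passes through a short stage marked by Bcas1, and then makes the proteins of the sheath. Cortex also holds deep layers and adjoining white matter, where myelin is dense, so the amount of myelin RNA in a piece of cortex depends on how much of that tissue it contains. In bulk RNA, fewer cells of a type and less RNA per cell cannot be told apart.

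The label of the genes was checked on other genes of the tissue. The summed level of 13 other genes of myelin structure was 1589 to 2779 CPM (counts scaled to library size) in sham. Of the peripheral myelin markers Prx and Ncmap, only Prx passed the filter, with 0.988 to 3.87 CPM over all libraries. Genes of central myelin were abundant in these libraries, and the peripheral marker Prx was near the floor. SAH 7d-5 and SAH 1d-3 stood apart from their groups in markers of other cells. In SAH 7d-5 the summed level of 5 neuron markers was 1780 CPM against 5333 to 7296 CPM in the other 5 SAH 7d libraries, and that of 5 macrophage markers was 8731 CPM against 92.5 to 281 CPM. In SAH 1d-3 the macrophage markers summed to 502 CPM against 85.1 to 125 CPM, although just 2 of the 5 were at their highest there. Markers of the choroid plexus set other libraries apart. The 5 of them summed to 740 CPM in SAH 1d-4 and 1070 CPM in SAH 1d-6, against 24.0 to 48.7 CPM in the other SAH 1d libraries.

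FPKM (fragments per kilobase of transcript, scaled to mapped reads) takes account of transcript length, so it was used to order the genes. The order by sham median was Mbp, Cnp, Mobp, Mag, Bcas1, Mog, Sox10, Pdgfra and Cspg4. Mbp stood 10.4 times above Cnp by sham medians, and the ranges of these genes did not meet in any group. Another step lay between Mog and Sox10, with a 4.93-fold difference of the sham medians, and another lay between Pdgfra and Cspg4, with a 5.14-fold difference. Ranges overlapped in at least 1 group for the other neighbours. The order of Mag and Bcas1 was Mag first in 5 of 6 sham libraries and in 5 of 6 SAH 1d libraries, but in 1 of 6 SAH 7d libraries.

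Mbp encodes myelin basic protein, which holds the layers of the sheath together. Its level was 1560, 2782 and 3911 FPKM (lowest, median and highest) in sham, 2817, 3333 and 4145 FPKM in SAH 1d, and 2170, 2908 and 3877 FPKM in SAH 7d. The 3 ranges overlapped, and the lowest value of all was in sham-5. Mobp, another basic protein of the sheath, gave 94.9, 179 and 223 FPKM in sham, 185, 214 and 284 FPKM in SAH 1d, and 135, 188 and 220 FPKM in SAH 7d. Here too the groups overlapped, sham-5 was lowest and SAH 1d-4 was highest. Mag encodes an adhesion protein on the innermost myelin layer, which faces the axon. It had 69.8, 99.5 and 117 FPKM in sham, 101.4, 115 and 147 FPKM in SAH 1d, and 72.9, 94.99 and 111 FPKM in SAH 7d. Of the 6 SAH 1d libraries, 3 lay above every library of both other groups, and the others lay within the sham range.

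Mog encodes a protein of the outermost layer of the sheath. Its lowest, median and highest levels were 54.3, 73.6 and 87.4 FPKM in sham, 58.3, 69.5 and 83.6 FPKM in SAH 1d, and 49.6, 70.1 and 93.2 FPKM in SAH 7d. The SAH 1d range lay within the sham range. Cnp encodes an enzyme that keeps cytoplasmic channels open in myelin and is already present in younger oligodendrocytes. It gave 202, 267 and 335 FPKM in sham, 181, 236 and 297 FPKM in SAH 1d, and 196, 258 and 296 FPKM in SAH 7d. The groups overlapped widely, and Cnp and Mog did not share the higher SAH 1d medians of Mbp, Mobp and Mag.

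Bcas1 had 44.5, 80.5 and 112 FPKM in sham, 72.2, 100 and 117 FPKM in SAH 1d, and 81.6, 112 and 133 FPKM in SAH 7d. The medians were in the order sham, SAH 1d, SAH 7d, and the ranges overlapped. Sox10, a transcription factor needed at every stage of the lineage, had 11.2, 14.9 and 17.0 FPKM in sham, 13.7, 16.3 and 19.2 FPKM in SAH 1d, and 12.2, 14.8 and 18.1 FPKM in SAH 7d. These were the most even values of the 9 genes, with a within-group SD of 0.22 in log2 CPM.

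Pdgfra gave 11.02, 14.3 and 19.9 FPKM in sham, 11.1, 12.1 and 24.5 FPKM in SAH 1d, and 12.0, 15.0 and 43.4 FPKM in SAH 7d. The highest SAH 1d value was in SAH 1d-3, where the other 5 libraries held 11.1 to 13.7 FPKM, and the highest SAH 7d value was in SAH 7d-5, where the others held 12.0 to 16.6 FPKM. Cspg4 was low throughout, with 2.17, 2.78 and 3.57 FPKM in sham, 2.47, 2.77 and 3.25 FPKM in SAH 1d, and 2.48, 3.33 and 5.07 FPKM in SAH 7d. Its highest value was also in SAH 7d-5, but in SAH 1d-3 it was the lowest of its group. Pdgfra and Cspg4 are also expressed outside the lineage, Pdgfra in fibroblasts of the meninges and Cspg4 in mural cells of vessels.

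**Figure D1:**
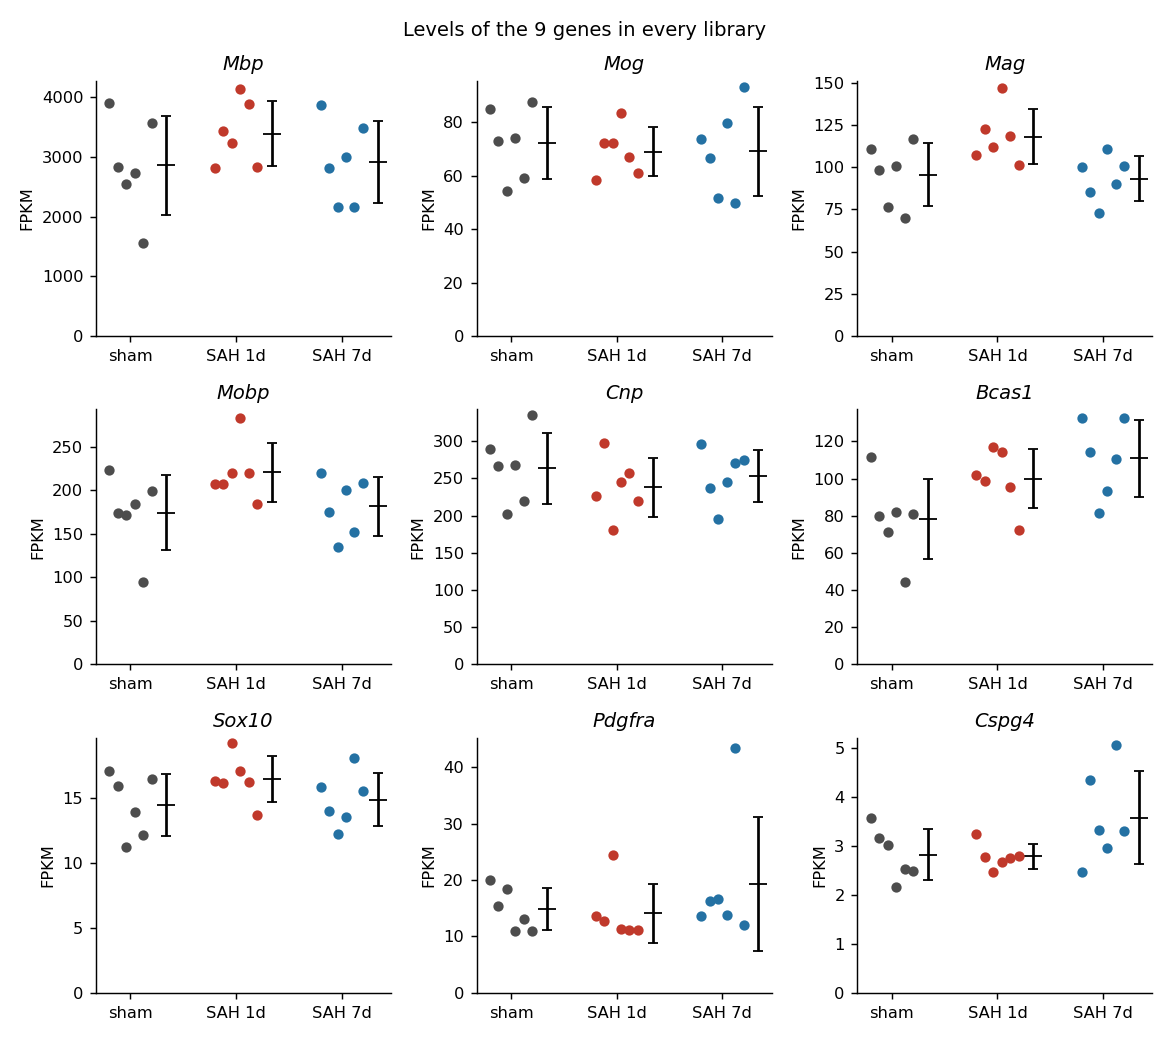
FPKM of the 9 genes in every library (points, with the 6 libraries of each group from left to right in the order of their numbers) and the mean with SD of each group (bar at right, n = 6). The groups overlap in all 9 panels, sham-5 is lowest for Mbp, Mobp, Mag and Bcas1, and Pdgfra is high in SAH 7d-5 and in SAH 1d-3.

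The high Pdgfra values were set beside the markers of other cells in the same libraries. In SAH 7d-5 all 6 markers of meningeal fibroblasts were at their highest of the group, with a summed level of 3925 CPM against 191 to 343 CPM in the other 5. Mural markers summed to 269 CPM there against 123 to 141 CPM, with 3 of 5 at their highest, and proliferation markers to 120 CPM against 8.86 to 18.03 CPM, with all 5 at their highest. Of the 8 other precursor genes tested, 1 was highest in SAH 7d-5, namely Vcan, a matrix proteoglycan, with 12.0 FPKM against 5.03 to 6.12 FPKM. In SAH 1d-3 fibroblast markers summed to 293 CPM, within the 198 to 338 CPM of the other libraries. Of these 6 markers 2 were at their highest of the group there, Dcn with 55.2 FPKM against 11.6 to 21.7 FPKM and Lum with 6.91 FPKM against 2.42 to 5.30 FPKM, and 1 was at its lowest. In the same library 5 of the 8 other precursor genes were at their highest and 2 at their lowest. The part of these cells in the Pdgfra values was not tested.

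The comparison of SAH 1d with sham asks how the cortex responds in the early phase. None of the 9 genes changed, where changed means an adjusted p under 0.05 in the edgeR quasi-likelihood test with Benjamini-Hochberg adjustment over all 18444 genes, and 0 of the 9 passed at an unadjusted p under 0.05. Of all genes tested, 25.4% changed in this comparison, 14.9% upward and 10.5% downward, and 38.8% passed at an unadjusted p under 0.05. The CPM of the groups overlapped for all 9, whereas 13.3% of all genes had groups that did not overlap. The other tools tried called 0 of the 9 as well. The log2 fold changes of the mature myelin genes were 0.20 for Mag, 0.20 for Mobp, 0.13 for Mbp, -0.18 for Mog and -0.27 for Cnp, with SEs of 0.14 to 0.20. Their median was 0.13, and that of all genes was 0.0086. The 95% intervals bound what could have been missed. Cnp spanned 0.677-fold to 1.02-fold, and Mbp spanned 0.809-fold to 1.47-fold, so a log2 change of 1 in either direction lay outside both. Bcas1 had a log2 fold change of 0.22 (SE 0.19), Sox10 0.07 (SE 0.13), Pdgfra -0.19 (SE 0.23) and Cspg4 -0.14 (SE 0.13). The Pdgfra value was -0.43 without SAH 1d-3 (edgeR adjusted p 0.0597) and -0.064 without sham-1, and the Cspg4 value was -0.040 without sham-1.

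SAH 7d compared with sham asks what is left of the response after a week. None of the 9 genes changed here either, and of all genes tested 0% changed in edgeR. At an unadjusted p under 0.05 edgeR passed 2842 genes, 15.4% of those tested, and the DESeq2 Wald test called 459 at an adjusted p under 0.05. Both the DESeq2 test and limma voom called 0 of the 9. For all 9 the groups overlapped in CPM, and 1.23% of all genes had groups that did not. All 5 mature myelin genes had small negative log2 fold changes, from -0.11 for Mog to -0.02 for Mbp, with a median of -0.10 against -0.0039 over all genes. The signs of Mbp, Mobp, Mog and Sox10 turned under other settings, so no direction is given for them. Bcas1 had the largest value of the 9, a log2 fold change of 0.45 (SE 0.20), equal to 1.36-fold with a 95% interval of 1.01-fold to 1.84-fold. It was the single member at an unadjusted p under 0.05 (0.0437), its edgeR adjusted p was 0.314, and 5 of 6 SAH 7d libraries lay above the sham median. Pdgfra gave 0.32 (SE 0.31) and Cspg4 0.29 (SE 0.18). Without SAH 7d-5 the Pdgfra value was -0.08.

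SAH 7d compared with SAH 1d asks how the tissue moves between the early and the later phase. Again none of the 9 genes changed, beside 1.37% of all genes tested, and 2 of the 9, Mag and Cspg4, had an unadjusted p under 0.05, beside 14.7% of all genes. Groups that did not overlap in CPM were found for 0 of the 9 and for 3.05% of all genes. Mag was lower at SAH 7d by 0.30 in log2 (SE 0.12), a ratio of 0.810 with a 95% interval of 0.673 to 0.975 and an edgeR adjusted p of 0.269, and none of the 6 SAH 7d libraries exceeded the SAH 1d median. Mobp gave -0.23, Mbp -0.15, Mog 0.07 and Cnp 0.16. Both precursor genes had positive values, 0.51 for Pdgfra (SE 0.33, edgeR adjusted p 0.505) and 0.43 for Cspg4 (SE 0.16, edgeR adjusted p 0.220), with 6 of 6 and 5 of 6 SAH 7d libraries above the SAH 1d median. With SAH 7d-5 and SAH 1d-3 both dropped, Pdgfra was called at a smaller log2 fold change of 0.34 (edgeR adjusted p 0.0313), in a fit that called 2512 genes instead of 252. These libraries held the highest Pdgfra values of their groups, so dropping them itself narrowed the spread of Pdgfra (SE 0.093). That adjusted p is therefore not independent of the Pdgfra values. Leaving out either library alone did not call it, and the value was 0.095 when SAH 7d-5 was left out and was 0.76 when SAH 1d-3 was. The 3 comparisons share their groups, so their values are not independent of each other.

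**Figure D2:**
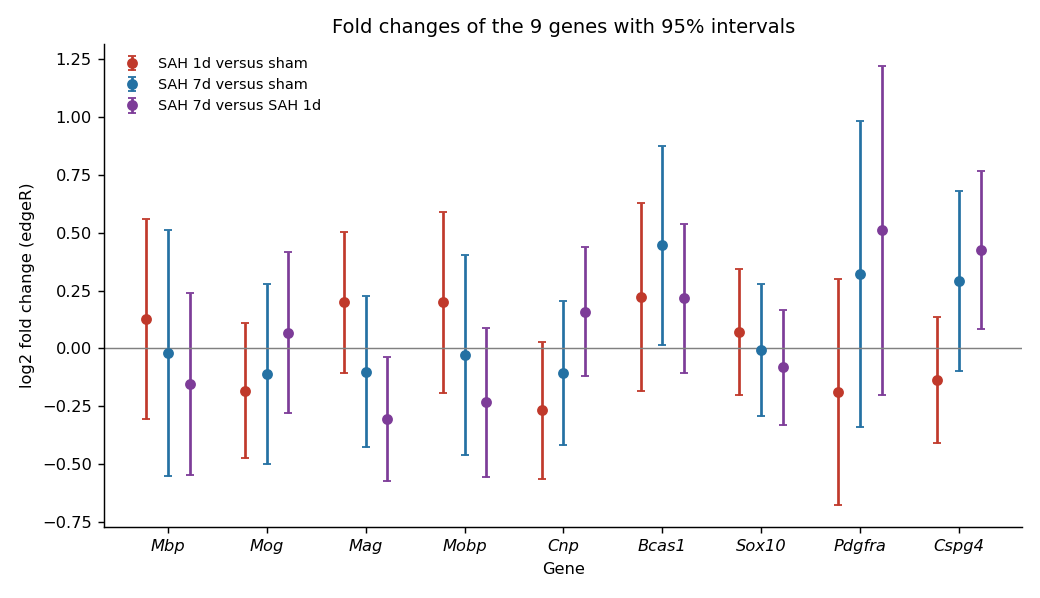
Log2 fold changes of the 9 genes (edgeR, points) with 95% intervals (bars) in the 3 comparisons, 6 libraries per group. The intervals of Bcas1 in SAH 7d versus sham and of Mag and Cspg4 in SAH 7d versus SAH 1d leave out 0, and none of the values passed after adjustment.

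The balance of mature and precursor genes was described in each library as the mean log2 CPM of the 5 mature genes minus that of Pdgfra and Cspg4. It ran from 3.02 to 4.07 in sham with a median of 3.38, from 3.27 to 4.11 in SAH 1d with a median of 3.72, and from 2.04 to 3.84 in SAH 7d with a median of 3.30. The groups overlapped in part. Of the SAH 7d libraries, 3 lay below every library of the other groups, with SAH 7d-5 lowest and the next value at 2.86. The last of these, SAH 7d-2, was only just below, at 3.01 against 3.02 in sham-3. On log2(FPKM + 1) SAH 7d-2 was not below all sham libraries. The mean difference of SAH 7d from SAH 1d was -0.51, and it lay between -0.64 and -0.28 with each library left out. With Sox10 in place of the precursor genes, which compares mature myelin with the lineage as a whole, the same difference was -0.02, and the medians of the groups were 3.66, 3.60 and 3.60. The SD between rats was 0.43 in sham, 0.32 in SAH 1d and 0.68 in SAH 7d, so the difference between SAH 7d and SAH 1d was smaller than the SD of SAH 7d and larger than the other SDs. Without SAH 7d-5 the SD of SAH 7d was 0.44 and the difference -0.28.

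The 5 mature myelin genes moved together from rat to rat. Values were centred on the group mean of each gene, and all 5 mature genes lay on the same side of it in 11 of 18 libraries. The mean deviation of the 5 genes ran from -0.57 in log2 CPM in sham-5 to 0.40 in sham-1, both of them sham rats, and from -0.39 to 0.27 within SAH 7d. The rise in sham-1 was not particular to the mature genes, as Pdgfra (0.55) and Cspg4 (0.44) were above their group means too. Astrocyte markers there summed to 3273 CPM against 1767 to 2354 CPM in the other sham libraries, and neuron markers to 4870 CPM against 6554 to 7971 CPM. Over the 18 centred libraries, Pearson's r among the 10 pairs of mature genes was 0.58 to 0.95 with a median of 0.80, and Mbp with Mobp gave the highest. Bcas1 followed the mature mean with an r of 0.81 (rho 0.74), and Sox10 with an r of 0.66 (rho 0.55). The precursor genes did not, with an r of -0.23 (rho -0.44) for Pdgfra and -0.10 (rho -0.17) for Cspg4, but they were alike to each other (r 0.62, rho 0.64). Bcas1 thus went with the mature genes more than the 6 other genes of newly formed oligodendrocytes did. Their r ran from -0.17 for Itpr2 to 0.35 for Bmp4. Over 18 libraries the r of Sox10 with single mature genes was 0.54 (Mog) to 0.69 (Mag). With SAH 7d-5 and SAH 1d-3 both dropped it was 0.77 (Mobp) to 0.87 (Cnp). These correlations describe rats whose genes share a library, a dissection and a depth. Markers of the striatum, which lies under the white matter beneath cortex, also varied between rats, from 146 to 1853 CPM summed over 7 genes, and each of the 7 had an r of 0.15 to 0.38 with the mature mean. They also differed between groups, with median sums of 1069 CPM in sham, 512 CPM in SAH 1d and 586 CPM in SAH 7d. All 7 had negative log2 fold changes in SAH 1d versus sham (median -1.24, 2 changed) and in SAH 7d versus sham (median -0.87, none changed). All 5 choroid plexus markers had positive log2 fold changes in SAH 1d versus sham (median 3.38, 3 changed). In SAH 7d versus sham 3 of them were positive and 2 negative, and none changed. The part of dissection in these swings and in the comparisons with sham was not tested.

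**Figure D3:**
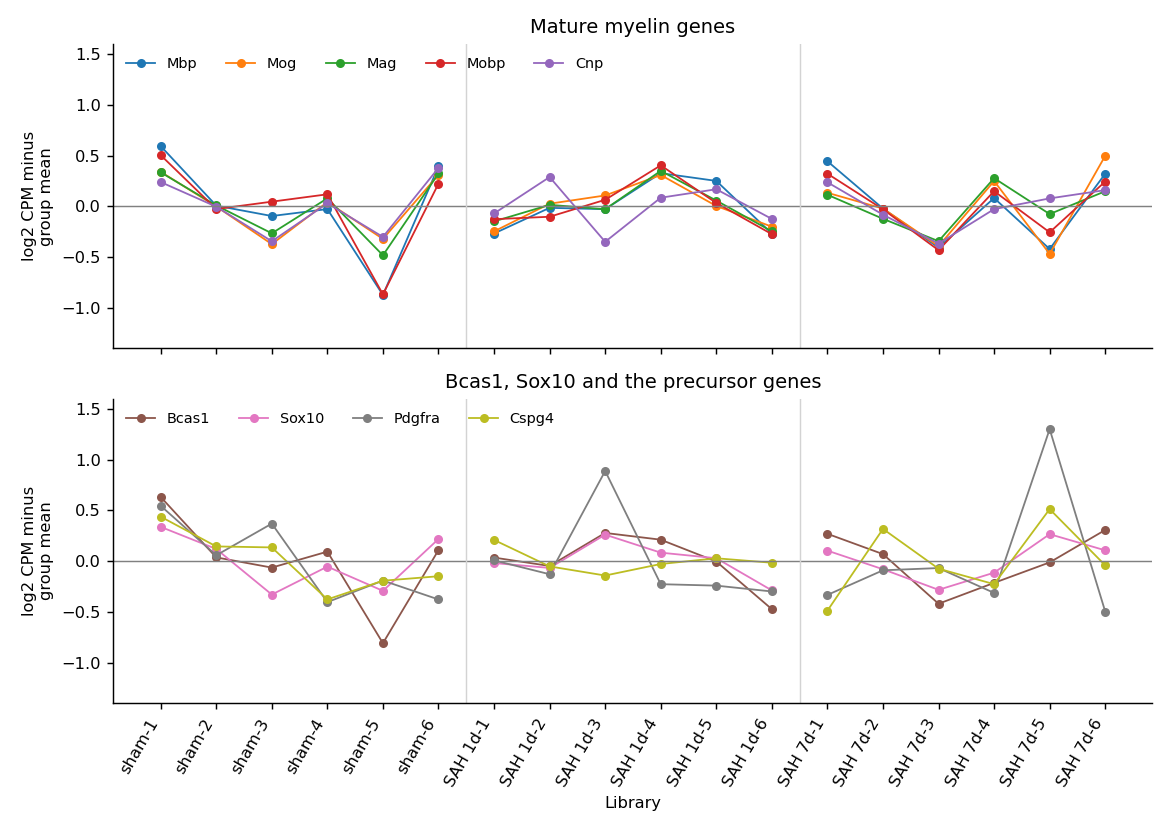
Log2 CPM minus the group mean for every library, with the 5 mature myelin genes above and Bcas1, Sox10, Pdgfra and Cspg4 below. The mature lines run together, down in sham-5 and up in sham-1, while Pdgfra peaks at 0.89 in SAH 1d-3 and 1.30 in SAH 7d-5.

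Of the other genes reported here, those with the highest r to the mature mean were Mal (0.91), Tmem88b (0.90), Fa2h (0.89), Pllp (0.89), Prr18 (0.85), Emc3 (0.85), Insc (0.84), Slc48a1 (0.84), Ermn (0.84) and Arhgef10 (0.83), with a rho of 0.73 to 0.92 over the 18 libraries. Mal, Pllp and Ermn encode proteins of the myelin membrane or its cytoskeleton, and Fa2h makes the hydroxylated fatty acids of myelin lipids. With SAH 7d-5 and SAH 1d-3 both dropped, 5 of these 10 stayed among the 10 highest.

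The promoters of 3 of the mature genes are shown beside that of Pdgfra, which did not move with them between rats. They are examples chosen with the matches known, and the counts for all genes in the table follow them. Whether any motif has a part in how the genes moved between rats was not tested. Each sequence is the 250 bases before the start of the gene in the RefSeq table for GRCr8, printed in the direction of the gene, and the deposited counts rest on another build. Capitals mark matches on either strand to ACAAAG, a core of the sites bound by SOX proteins. Also searched on both strands were AACAAT, another such core, and CAGATG, an E-box of the kind that OLIG proteins bind. The motifs do not overlap each other in these windows.
Mag (chr1:95291045-95291294, minus strand): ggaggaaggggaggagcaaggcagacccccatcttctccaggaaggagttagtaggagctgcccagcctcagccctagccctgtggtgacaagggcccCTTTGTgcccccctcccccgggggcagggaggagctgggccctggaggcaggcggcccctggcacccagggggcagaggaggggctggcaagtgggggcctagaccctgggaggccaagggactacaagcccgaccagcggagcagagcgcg
Mobp (chr8:128746982-128747231, plus strand): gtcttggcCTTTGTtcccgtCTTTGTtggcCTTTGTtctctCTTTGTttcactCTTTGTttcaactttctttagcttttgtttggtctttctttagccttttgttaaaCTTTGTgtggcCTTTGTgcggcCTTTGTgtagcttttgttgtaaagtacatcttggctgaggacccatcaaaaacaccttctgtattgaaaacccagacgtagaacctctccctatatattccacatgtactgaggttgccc
Cnp (chr10:86011254-86011503, plus strand): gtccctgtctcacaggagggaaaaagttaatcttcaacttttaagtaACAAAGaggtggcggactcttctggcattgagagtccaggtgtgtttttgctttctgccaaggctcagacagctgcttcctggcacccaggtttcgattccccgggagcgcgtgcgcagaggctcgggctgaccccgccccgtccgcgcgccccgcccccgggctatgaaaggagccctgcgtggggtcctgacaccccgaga
Pdgfra (chr14:33408517-33408766, minus strand): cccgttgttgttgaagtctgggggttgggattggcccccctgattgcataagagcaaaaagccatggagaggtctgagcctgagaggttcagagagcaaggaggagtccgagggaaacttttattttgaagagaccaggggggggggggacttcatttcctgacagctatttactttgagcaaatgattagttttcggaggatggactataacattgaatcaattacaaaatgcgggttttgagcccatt
Mag and Cnp each held 1 match to ACAAAG, which begins 152 bases before the start in Mag, on the opposite strand, and 203 bases before it in Cnp. The Mobp window held 8, all on the opposite strand and in a stretch rich in T, the farthest beginning 242 bases and the nearest 120 bases before the start. Of the genes not shown, Cspg4 held no match of the 3 motifs. Mbp has 2 starts in the table, 1 without a match and 1 with 1 match to ACAAAG, 2 to AACAAT and 1 to CAGATG. Of 33469 promoters of the same length, 16.3% held ACAAAG, 10.3% held AACAAT and 14% held CAGATG. No match of the 3 motifs was in the Pdgfra window, which says only that these letters are not there. The table holds 6 of the 9 genes.

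Ratios between members within a library cancel the scaling of that library, and gene length cancels when a ratio is compared between groups. Of 36 pairs, 2 had ratios that did not overlap between SAH 1d and sham, a smaller share than the 12.5% of all pairs of tested genes, and they were looked at after the fold changes were known. The CPM of Mag over that of Mog was 1.73, 1.95 and 2.08 (lowest, median and highest) in sham, 2.29, 2.55 and 2.70 in SAH 1d, and 1.56, 1.99 and 2.60 in SAH 7d. Every SAH 1d library thus held more Mag RNA relative to Mog than every sham library did. Mag over Cnp was 0.320, 0.370 and 0.387 in sham, 0.416, 0.471 and 0.629 in SAH 1d, and 0.328, 0.358 and 0.451 in SAH 7d. For SAH 7d against sham 1 pair did not overlap, beside 1.43% of all pairs, and it was Bcas1 over Mbp, with 0.0246, 0.0307 and 0.0326 in sham and 0.0339, 0.0412 and 0.0552 in SAH 7d. No pair was apart between SAH 7d and SAH 1d, beside 2.84% of all pairs.

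**Figure D4:**
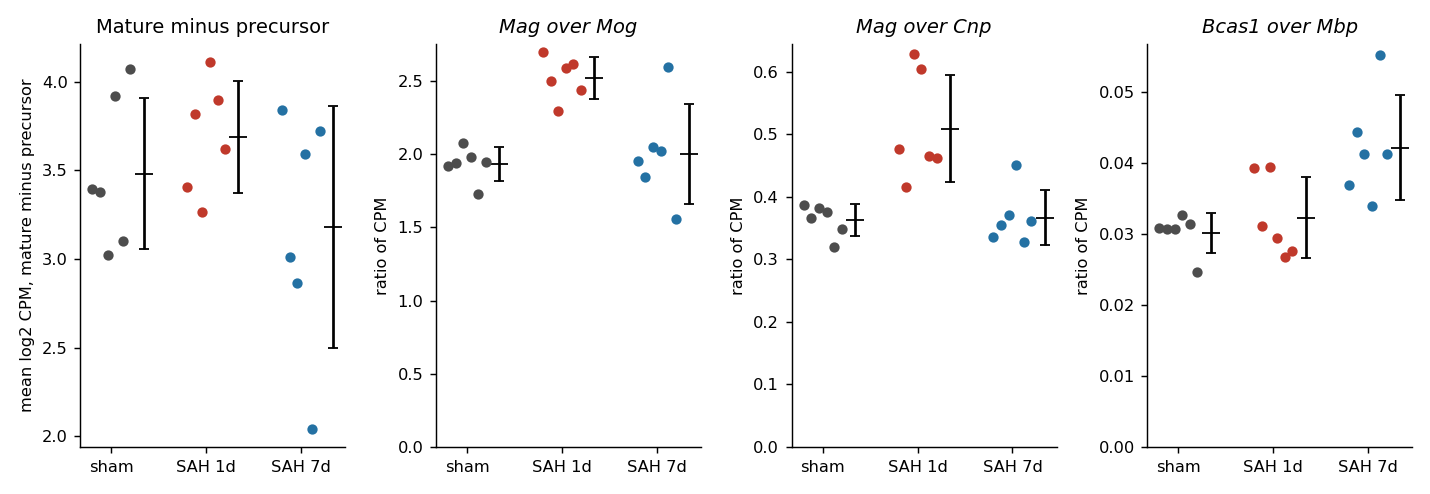
Mature minus precursor in mean log2 CPM (left) and the ratios of CPM of Mag over Mog, Mag over Cnp and Bcas1 over Mbp in every library, with the mean and SD of each group (n = 6). The Mag ratios in SAH 1d lie above all sham libraries, and the Bcas1 ratios in SAH 7d lie above all sham libraries. In the left panel, whose axis does not start at 0, the groups overlap in part. There 3 SAH 7d libraries lie below all others, SAH 7d-2 only just (3.01 against 3.02 in sham-3).

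Other genes of the lineage, and genes that act on it, were taken as 7 lists with 55 genes tested. The growth factors and the brakes on differentiation are of the second kind. Their RNA need not come from the lineage, and Lingo1 and Igf1, for example, are also made by other cells. Of the 55, 4 rose and 3 fell in SAH 1d versus sham, which is 7 of 55 beside the background of 25.4%. Fgf2, Jag1 and Lingo1 are the genes of the second kind among these 7. In SAH 7d versus sham 0 changed, and in SAH 7d versus SAH 1d 1 fell, again Fgf2. In SAH 7d versus SAH 1d, 0.282% of all genes rose and 1.08% fell. That count depended on which libraries were kept. With SAH 7d-5 and SAH 1d-3 both dropped, 7 of the 55 changed between SAH 7d and SAH 1d, with Bmp4 (log2 fold change 1.13), Plekhb1 (0.47), Aspa (0.45), Lingo1 (0.45) and Omg (0.30) upward and Fgf2 (-1.02) and Jag1 (-0.59) downward. That count stood beside 13.6% of all genes in the same fit. Dropping SAH 7d-5 alone gave 5, beside 8.38% of all genes, and dropping SAH 1d-6 alone gave 2, beside 161 of all 18444 genes. For SAH 1d versus sham the count was 8 without SAH 1d-3, beside 5252 of all 18444 genes. Without SAH 1d-4 it was 4, beside 4244 of all genes. The median log2 fold change of the 55 in SAH 1d versus sham was -0.11, against 0.0086 over all genes. At an unadjusted p under 0.05, 14, 5 and 10 of the 55 passed in the 3 comparisons, beside 38.8%, 15.4% and 14.7% of all genes.

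Among 13 other myelin structure genes, 1 rose, 1 fell and 11 did not pass in SAH 1d versus sham. Cldn11, which builds the tight junctions between myelin layers, had 81.9, 116 and 162 FPKM in sham and 154, 177 and 238 FPKM in SAH 1d, and rose by 0.53 in log2 (SE 0.17, edgeR adjusted p 0.0383). Opalin, a membrane protein of mature oligodendrocytes, had 40.0, 57.1 and 68.8 FPKM in sham and 36.1, 45.4 and 58.4 FPKM in SAH 1d, and fell by 0.42 in log2 (SE 0.15, edgeR adjusted p 0.0481). Both pairs of groups overlapped. Of the 12 fits that leave out 1 library, Opalin was called in the 3 without sham-3, sham-5 or SAH 1d-2 (edgeR adjusted p 0.0612 to 0.103 in the others). Cldn11 lost its call without sham-2, sham-3, sham-4, sham-5, SAH 1d-3 or SAH 1d-4 (edgeR adjusted p 0.0598 to 0.0793). Cldn11 was also not called with the replicate number as a block (adjusted p 0.0722) or with all libraries in 1 fit (0.0601). Opalin was not called with all libraries in 1 fit (0.0845), without the filter on low counts (0.0584) or on log2(FPKM + 1), where its value was -0.28 (adjusted p 0.167). None of 7 myelin lipid and acetate enzymes changed in any comparison with all libraries in.

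Of 10 lineage transcription factors, 1 rose and 1 fell in SAH 1d versus sham. Myrf, which switches on the myelin genes in maturing cells, had 8.99, 12.9 and 14.2 FPKM in sham and 14.5, 17.0 and 21.6 FPKM in SAH 1d, and rose by 0.45 in log2 (SE 0.14, edgeR adjusted p 0.0305). Its groups were apart in FPKM but overlapped in CPM, and its call ended without sham-3, sham-5 or SAH 1d-4 (adjusted p 0.0591 to 0.0658). Blocking on replicate number also ended it (adjusted p 0.0687). Sox8, a relative of Sox10, had 8.13, 10.4 and 11.6 FPKM in sham and 4.799, 7.08 and 9.95 FPKM in SAH 1d, and fell by 0.56 in log2 (SE 0.14, edgeR adjusted p 0.0142). The groups overlapped for Sox8, and it was called with each library left out. The 8 others, Olig1 and Olig2 among them, did not pass.

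Of 6 genes of newly formed oligodendrocytes and 8 other precursor genes, none changed in any comparison with all libraries in. Growth factors for precursors gave 1 change in 5 genes in SAH 1d versus sham. Fgf2, which drives precursor division, had 0.510, 0.972 and 1.99 FPKM in sham, 2.46, 2.92 and 4.45 FPKM in SAH 1d, and 1.03, 1.13 and 1.76 FPKM in SAH 7d. The SAH 1d libraries lay above those of both other groups. Fgf2 rose 2.83-fold in SAH 1d versus sham (log2 1.502, SE 0.30, edgeR adjusted p 0.00392) and fell by 1.21 in log2 in SAH 7d versus SAH 1d (SE 0.21, edgeR adjusted p 0.0155), where it was the 1 listed gene that changed. With the replicate number as a block, the adjusted p of the second value was 0.0641. Pdgfa, the ligand of the receptor encoded by Pdgfra, had a log2 fold change of -0.14 in SAH 1d versus sham (SE 0.09).

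Of 6 genes that hold back differentiation, 1 rose and 1 fell in SAH 1d versus sham. Jag1, a Notch ligand, had 0.922, 1.13 and 1.37 FPKM in sham and 1.41, 1.89 and 2.26 FPKM in SAH 1d, with no overlap, and rose by 0.60 in log2 (SE 0.14, edgeR adjusted p 0.00955). Lingo1, a receptor component that restrains myelination and is mostly made by neurons, had 85.7, 125 and 140 FPKM in sham and 72.1, 81.1 and 124 FPKM in SAH 1d, and fell by 0.54 in log2 (SE 0.15, edgeR adjusted p 0.0205). The summed level of the 5 neuron markers moved the same way, from 4870 to 7971 CPM in sham to 3712 to 4686 CPM in SAH 1d, and its part in the Lingo1 value was not tested. With all 18 libraries in 1 fit, the adjusted p was 0.121 for Lingo1 and 0.0739 for Jag1.

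**Figure D5:**
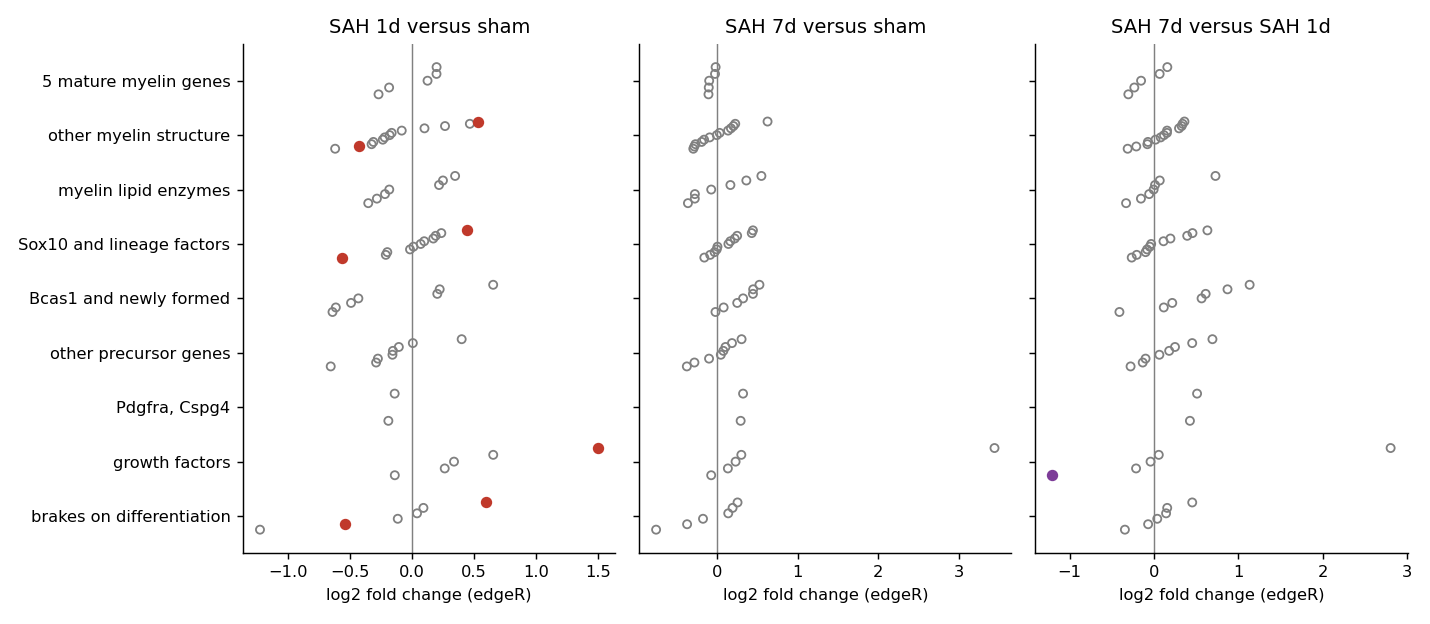
Log2 fold changes (edgeR) of the 9 genes and of 55 other genes, of the lineage or acting on it, by list in the 3 comparisons. Each circle is 1 gene, filled where it changed at an adjusted p under 0.05. Filled circles are 7 in SAH 1d versus sham, 0 in SAH 7d versus sham and 1 in SAH 7d versus SAH 1d, and none of them is among the 9 genes; the far right circle among the growth factors is Igf1, at 3.45 and 2.80.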

How the data were processed

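The authors aligned the reads to the rat genome Rnor_6.0 and deposited whole-number counts per gene, not normalized, and FPKM values. The submitters' processing notes name fastp, HISAT2 and DESeq2 1.16.1, and a mouse build that goes against the rat gene identifiers. The counting program is not given in the sources used here. The library kit is not described as stranded. Groups came from the column names, which equal the deposited descriptions. The titles of the SAH libraries carry other codes, so the replicate numbers, on which the block rests, are uncertain as a pairing.

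Counts were tested with edgeR 4.0.16 in R 4.3.3 (TMM, filterByExpr over 18 libraries, quasi-likelihood F test, 12 libraries per comparison, two-sided, Benjamini-Hochberg adjustment). SE is the size of the log2 fold change over the square root of F. CPM used TMM factors, and log2 CPM a prior count of 2. Tables were made with Python 3.11.15. The test was checked on simulated data.

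The named genes are the 9 members, in each other lineage list and comparison the genes that changed (up to 4 with the largest log2 fold changes), and the 10 genes most like the mature members. The members and lists were chosen with earlier results of these data known. Genes named outside this rule were chosen after their values were seen. Tmem2 is listed as Cemip2 and was matched through RefSeq. Lhfpl3 and Pecam1 were not matched and are not analysed here, and 3 other listed genes are not reported here and were left out of the lists and the ranking by likeness. The SEs of the edgeR fit hold both the spread of rats within groups and counting error.

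Alternatives were DESeq2 size factors, the DESeq2 1.42.0 Wald test, limma 3.58.1 voom with quality weights, 1 fit of all libraries, no filter, the replicate number as a block, limma on log2(FPKM + 1) and log2(FPKM + 0.1), and libraries left out.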

Additional observations from a re-analysis of the deposited data

Results flagged for a closer look

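In each group of 6 libraries the most distant value of each of the 9 genes, and of the mature minus precursor balance, was held against Dixon's critical value. Of 30 groups of values 3 were past it, and chance flags about 1 in 20. Pdgfra in SAH 7d-5, at 43.4 FPKM, and Pdgfra in SAH 1d-3, at 24.5 FPKM, lay far above the other libraries of their groups. Mobp in SAH 1d-4, at 284 FPKM, was the last, and the other mature genes were also above their group means in that library. Choroid plexus markers were high there as well, and their part in the Mobp value was not tested.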

How the results depend on the processing

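None of the 9 genes changed in SAH 1d versus sham or SAH 7d versus sham under any alternative. In SAH 7d versus SAH 1d the count was 1, Pdgfra, when the pair SAH 1d-3 and SAH 7d-5 was dropped, and 0 otherwise. The number of all genes changed moved more. For SAH 1d versus sham it was 2462 with all 18 libraries in 1 fit, against 4684. For SAH 7d versus sham it was 459 with the DESeq2 Wald test, 2 with limma voom and 9 with all libraries in 1 fit, against 0, and 0 to 3 with each library left out, the 3 without SAH 7d-4. Of the 55 other listed genes, 3 to 13 changed in SAH 1d versus sham over all alternatives, against 7, beside 2462 to 6502 of all genes. In SAH 7d versus SAH 1d 0 to 7 of the 55 changed, against 1, beside 29 to 2718 of all genes. For SAH 7d versus SAH 1d the 252 became 1012 with the DESeq2 Wald test, 2718 with limma voom, 779 with all libraries in 1 fit, 411 and 429 with limma on log2(FPKM + 1) and log2(FPKM + 0.1), 2512 with that pair dropped, and 102 to 1545 with each library left out, the highest without SAH 7d-5. The cause was not tested.

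Signs turned for values near 0. For SAH 7d versus sham, Mbp was 0.13, Mobp 0.082 and Mog 0.0019 with voom. On log2(FPKM + 1) and log2(FPKM + 0.1), Mbp was 0.0549 on both, Mobp 0.084 and 0.0846, and Sox10 0.0443 and 0.0475. With that pair dropped, Mbp was 0.0599, Mobp 0.0261 and Pdgfra -0.0786. With each library left out, Mbp ran from -0.15 to 0.12, Mobp from -0.16 to 0.088 and Sox10 from -0.069 to 0.073, and Pdgfra from -0.0786 to 0.45. Mog in SAH 7d versus SAH 1d was -0.0231 and -0.0238 on these scales and -0.038 to 0.15 with each library left out. For SAH 1d versus sham, Mbp was -0.0062 to 0.26 with each library left out. On log2(FPKM + 0.1) the median of all genes in SAH 1d versus sham moved to 0.11. Of 10 genes most like the mature mean, 5 were kept with that pair dropped.

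The groups share replicate numbers, but the numbers did not pair the libraries. Same-numbered libraries had a correlation of deviations over 0.1 in 1 of 18 pairs, and in 2 of 18 the own number was best. With the replicate block, 29 genes changed in SAH 7d versus SAH 1d, and in SAH 7d versus sham Mbp was 0.00928, Mobp 0.000745 and Sox10 0.0015. With 6 rats per group, precision was limited by the spread between rats.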

Other observations

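The genes of newly formed oligodendrocytes were chosen for a closer description after their values were seen. In SAH 7d versus SAH 1d, 5 of the 6 had positive log2 fold changes, with a list median of 0.59 against 0.03 over all genes, and none passed the edgeR test after adjustment with all libraries in. Bmp4, a secreted signal also made by early oligodendrocytes, gave 1.13 (SE 0.28, edgeR adjusted p 0.0694), with no overlap of the groups in CPM. Enpp6, an enzyme of cells that have just left the precursor state, gave 0.87 (SE 0.32), Gpr17, a receptor that marks the same step, gave 0.61 (SE 0.29), and Neu4, a sialidase, gave 0.56 (SE 0.25). Itpr2, a calcium channel, gave 0.12 (SE 0.26), and Cemip2 was the exception at -0.41 (SE 0.34). In SAH 1d versus sham the values of Bmp4, Enpp6, Gpr17 and Neu4 were -0.61, -0.43, -0.64 and -0.49, and those of Cemip2 and Itpr2 were 0.65 and 0.20. The comparisons share the SAH 1d libraries, with SAH 1d-3 among them. Cemip2 had 10.7 FPKM in SAH 1d-3 against 2.26 to 3.49 FPKM in the others of its group. Gpr17 (2.55 against 6.87 to 12.2 FPKM) and Neu4 (0.834 against 1.30 to 2.26 FPKM) were lowest in that library. Bmp4, Enpp6 and Itpr2 lay within the range of the others there. In SAH 7d-5, 3 of the 6 genes, Itpr2, Cemip2 and Bmp4, were at their highest of the SAH 7d group in CPM. Itpr2 had 2.52 FPKM in SAH 7d-5 against 0.795 to 1.25 FPKM in the other SAH 7d libraries and 0.999 to 1.49 FPKM in SAH 1d. Without SAH 7d-5 the Bmp4 value in SAH 7d versus SAH 1d was 1.04. The part of SAH 7d-5 in the count of positive values was not tested.

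Aspa, which releases acetate for myelin lipids from N-acetylaspartate, gave 0.73 in SAH 7d versus SAH 1d (SE 0.21, edgeR adjusted p 0.115), and its groups did not overlap in CPM. Its level was 63.6 FPKM in SAH 7d-5 against 26.3 to 37.1 FPKM in the other SAH 7d libraries. Without SAH 7d-5 the Aspa value was smaller, at 0.49, and was called (edgeR adjusted p 0.0295). Igf1, a growth factor for oligodendrocytes that microglia and macrophages also make, had 63.0 FPKM in SAH 7d-5 against 0.728 to 3.85 FPKM in the other SAH 7d libraries.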
